A study of Homo sapiens with 6 samples.

Results

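The comparison described here sets 18 h of vemurafenib against 6 h of the same drug within each of 2 engineered melanoma lines. Its differences use 4 of the 6 arrays of the series, those labelled as vemurafenib-treated, and there are 2 of these paired differences for every gene. The vehicle arrays enter the estimate of the spread behind the p-values. A375 is an established human melanoma line whose BRAF kinase is mutated and active. In all cells used, eIF4B, an initiation factor that assists the helicase eIF4A in translation, had been knocked out by CRISPR. A lentivirus then put back either LacZ, a bacterial gene that serves as the negative control, or wild-type eIF4B. The first line is called KO/LacZ, or the knockout line, and the second KO/eIF4B, or the rescued line. Each line was given 10 µM vemurafenib for 6 h or for 18 h, and a further culture of each received the vehicle, DMSO. There was 1 array per line and treatment, all of them of the human U133 Plus 2.0 type. The labels do not say that the 2 treatment times came from separate cultures, and they give no time for the vehicle, so p-values measure only the spread between these arrays. Length of drug exposure and time in culture cannot be told apart. The 2 lines come from 1 parental line and share the knockout, which limits them as replicates of each other, and no array of unmodified A375 was analysed here.

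Vemurafenib blocks the activated BRAF kinase, the first kinase of the cascade that runs through MEK to ERK. ERK phosphorylates transcription factors, and a set of short-lived transcripts (dual-specificity phosphatases, Sprouty proteins, ETS and AP-1 factors) follows its activity closely. When ERK signalling stops in BRAF-mutant melanoma cells, this output falls within hours, while entry into S phase, growth programmes and cell identity follow later.

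Values are log2 RMA intensities, and a difference of 1 is a 2-fold change. Pairs of values are given for KO/LacZ first and KO/eIF4B second. EIF4B itself read 8.53 and 10.14 at 6 h and 8.53 and 10.28 at 18 h, so the labelled lines differed in the targeted transcript at both times, and its level did not pass the test between the times (mean difference 0.07, SE 0.07, limma adjusted p 0.47). Array medians lay between 5.196 and 5.221, but RMA gives all arrays the same distribution, so the medians cannot show RNA quality. The 3′ and 5′ control probe sets of GAPDH and ACTB differed by -0.01 to 0.04 and 0.13 to 0.18. No array stood apart in this sign of RNA quality. Of the 10 melanoma line markers, 9 were tested. SOX10 and MIA were the brightest, at 9.86 or more on every array. MITF, S100B, MCAM and CSPG4 lay between 7.42 and 9.97. PMEL, TYR and S100A1 lay between 5.44 and 6.09, not far above the array medians, and MLANA stayed under 5 throughout. Of the epithelial markers, KRT18 read 11.70 to 12.75 and KRT14 8.85 to 10.80, whereas EPCAM and CDH1 stayed under 5.

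Between 6 h and 18 h, 4587 of the 13506 genes tested passed the threshold, which is 34.0% (limma with Benjamini-Hochberg adjustment, adjusted p under 0.05). There were 2568 higher at 18 h (19.0%) and 2019 lower (14.9%), and 6219 genes had an unadjusted p under 0.05. All 4587 moved in the same direction in both lines, but a gene had to do so to pass the test, so this adds no evidence. Most of these changes were small: the median size was 0.434 and the smallest 0.201. A stricter set, called and moved by at least 1 log2 unit in each line, held 154 higher genes (1.14%) and 57 lower genes (0.422%). The number of calls depended on single arrays. It was 1435 without the KO/LacZ 6 h array, 2360 without the KO/LacZ 18 h array and 2804 without the KO/eIF4B 6 h array, and 2727 where the 2 lines were not paired. The balance of directions depended on scaling, because centring each array on its median moved the median difference over all genes from 0 to -0.101 and gave 1855 higher and 3116 lower genes. Changes given below are on the scale as deposited. The KO/LacZ 6 h array had the most influence, so genes that lost their call without it are named in each paragraph. A gene lost only without another array is named with that array. List counts given below with an array left out also come from fewer calls over all genes. A lower count there need not be particular to the list.

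The 12 genes that rose most between the times differ in function. COL21A1, a fibril-associated collagen, read 4.10 and 4.75 at 6 h and 8.65 and 7.35 at 18 h. The 18 h arrays lay far above every other array. The mean difference was 3.58 (SE 0.44, 11.9-fold, adjusted p 0.0054). EDIL3, a secreted integrin ligand, went from 5.67 and 5.44 to 8.62 and 8.18 (mean 2.84, SE 0.13, adjusted p 0.0018). MGP, matrix Gla protein, went from 5.36 and 6.02 to 8.17 and 8.52 (mean 2.66, SE 0.21, adjusted p 0.0027). For both genes the 2 times did not overlap in level. PCDH7, a protocadherin, rose from 6.22 and 6.08 to 9.58 and 7.98. Its rise was larger in the knockout line (3.36 against 1.89), and it lost its call without the KO/LacZ 6 h array. IGFBP5, a secreted binding protein of insulin-like growth factors, rose from 5.39 and 5.83 to 8.46 and 7.80. Further genes among the 12 with the highest mean were PRUNE2 (2.96), the transcription factor SP8 (2.48), RHOU (2.47), NEBL (2.29), the cytochrome P450 CYP1B1 (2.22), AHNAK2 (2.22) and the GABA transaminase ABAT (2.21).

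The 12 genes that fell most were as varied. COL13A1, a transmembrane collagen, read 6.43 and 7.18 at 6 h and 3.04 and 3.69 at 18 h (mean -3.44, SE 0.10, adjusted p 0.0016). NTM, a GPI-anchored adhesion molecule of neurons, went from 7.95 and 8.09 to 4.56 and 5.41. Both had levels at 18 h below those of all other arrays, as did the genes that follow. ETV4, an ETS factor that ERK induces, went from 8.70 and 8.80 to 5.83 and 6.14 (mean -2.76, SE 0.10, adjusted p 0.0018). NT5E, which encodes the ecto-nucleotidase CD73, went from 7.49 and 8.06 to 4.90 and 5.20. CEMIP, a protein involved in hyaluronan breakdown, had already dropped from 9.77 and 9.90 under vehicle to 6.70 and 7.36 at 6 h, and it read 4.33 and 4.29 at 18 h. The remaining genes of the 12 lowest were CYB5R2 (-2.72), the transglutaminase TGM2 (-2.40), the integrin subunit ITGB3 (-2.34), SERPIND1 (-2.22), the collagenase MMP1 (-2.16), AMIGO2 (-1.99) and CFAP95 (-1.95).

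These 24 genes were each read from their brightest probe set, and 19 of them have others. All 46 further probe sets had the same sign, 16 of them moved by at least 1 the same way, and 21 had a mean level under 5. For CEMIP, COL13A1, NT5E, NEBL and SP8 the second brightest probe set did not pass the test.

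**Figure D1:**
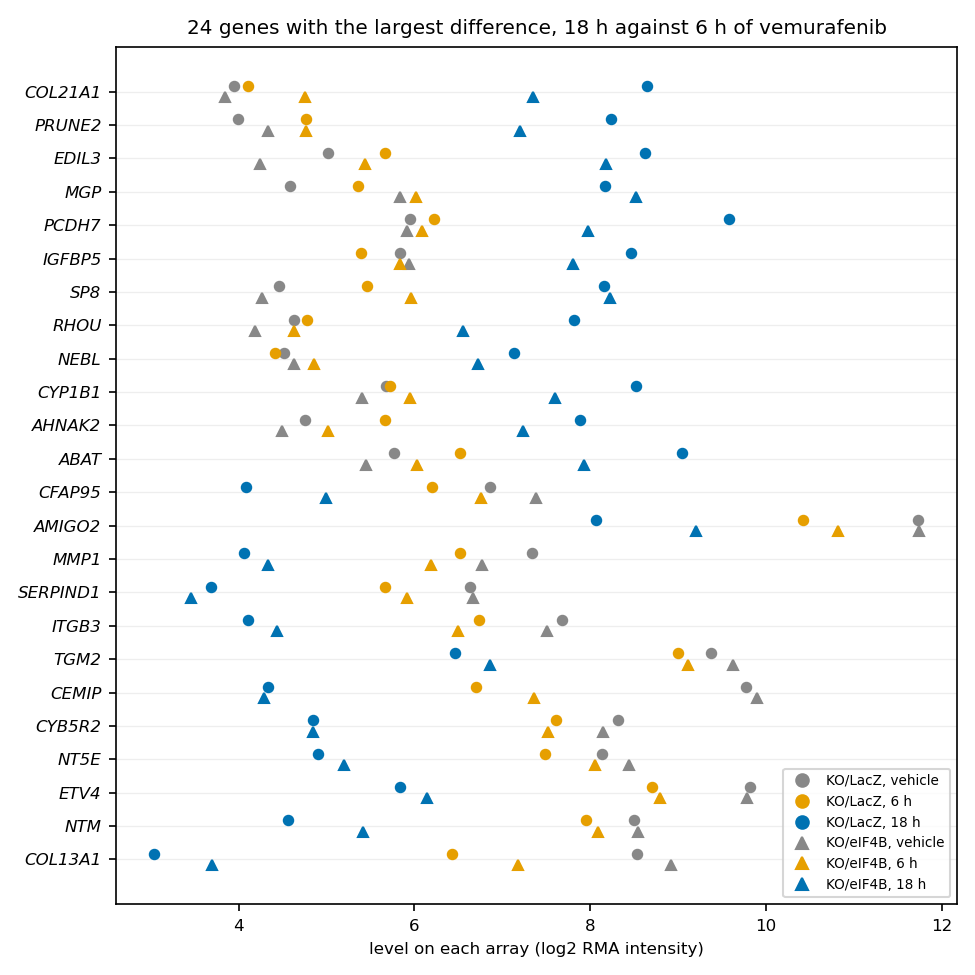
Levels of the 24 leading genes on all 6 arrays (x axis, log2 RMA intensity; circles KO/LacZ, triangles KO/eIF4B; grey vehicle, orange 6 h, blue 18 h). In every gene both 18 h points lie on one side of both 6 h points, as for COL21A1 at 8.65 and 7.35 against 4.10 and 4.75.

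The vehicle arrays show where each change stood at 6 h. Here they sort the genes, and in the test above they enter only the estimate of the spread. The 6 h arrays enter both the change from vehicle to 6 h and, with the opposite sign, the change from 6 h to 18 h. The classes are therefore descriptions with no test. Of the 154 higher genes, 86 started late, with a mean change from vehicle under 0.5 at 6 h, and 63 grew, having moved the same way by 0.5 or more. Of the 57 lower genes, 27 started late and 29 grew. Only 6 of the 211 genes went back toward vehicle or beyond it. Under a requirement of 0.5 rather than 1 log2 unit in each line, 581 higher and 372 lower genes started late, 168 and 94 grew, and 35 and 7 went back.

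Late-starting higher genes had a median change of 0.23 at 6 h and 1.61 at 18 h against vehicle. They included MGP, PCDH7, IGFBP5, RHOU, NEBL and CYP1B1. IGFBP5 illustrates the class in its brightest probe set: vehicle arrays read 5.83 and 5.94, the 6 h arrays 5.39 and 5.83, and the 18 h arrays 8.46 and 7.80. Its other probe sets moved by only 0.40, 0.79, 0.37, 0.25 and 0.09 between the times. Late-starting lower genes had medians of -0.29 and -1.56. Among named genes, predicted loci passed over, the falls were largest in NTM, TGM2, CD96, the calcium-binding protein CALB2, MCM10 and the keratin KRT7. The predicted locus LOC100505498, with a fall of 1.67, lay between CALB2 and MCM10. TGM2 read 9.38 and 9.62 under vehicle, 9.0 and 9.11 at 6 h and 6.46 and 6.86 at 18 h.

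Genes that grew had moved by a median of 0.81 at 6 h and 2.54 at 18 h where they rose, and by -0.92 and -2.82 where they fell. COL21A1, PRUNE2, EDIL3, SP8, AHNAK2 and ABAT headed the rising genes, although COL21A1 and PRUNE2 were only 0.53 and 0.60 above vehicle at 6 h, close to the limit of 0.5. CD24, a surface glycoprotein found on stem-like cells, was 2.56 above vehicle at 6 h and 4.25 at 18 h. COL13A1, ETV4, NT5E, CEMIP, CYB5R2 and ITGB3 headed the falling genes. NT5E, at -0.51, also sat just inside the limit, and NTM, at -0.50 after rounding, just outside it.

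The 6 genes that went back were named in full. SIPA1L2, which encodes a GTPase-activating protein of the Rap family, was the 1 gene that reversed: it read 7.57 and 7.29 under vehicle, 6.81 and 6.79 at 6 h and 8.94 and 8.44 at 18 h. CDC42EP3, a CDC42 effector, dropped from 9.54 and 9.97 to 7.57 and 8.62 and stood at 9.35 and 9.65 at 18 h. FLRT3, an adhesion molecule linked to FGF signalling, dropped from 9.90 and 9.57 to 8.50 and 8.15 and returned to 9.71 and 9.26. CSGALNACT1, a chondroitin sulfate synthesis enzyme, likewise came back to within 0.11 of vehicle, although its only other probe set, with a mean level of 4.91, moved the other way between the times (-0.40). GSAP came back in part, from 2.23 below vehicle to 0.98 below it. OSR2, a zinc-finger factor, was the 1 gene that had risen at 6 h (by 0.75) and then fell, to 0.37 below vehicle.

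Much of the early drop held. At 6 h, 174 genes were at least 1 log2 unit below vehicle in both lines, and 106 of them moved by less than 0.5 in each line afterwards. Over all genes tested the median size of 18 h minus 6 h was 0.224 in KO/LacZ and 0.164 in KO/eIF4B. A move under 0.5 was therefore common and not particular to these genes. The median of 18 h minus 6 h over the 174 was -0.01. The 63 genes that had risen by 1 or more at 6 h behaved otherwise: 15 held, and the median over the 63 was a further rise of 0.71. DUSP6, the cytoplasmic phosphatase of ERK, shows the held drop, with 10.10 and 9.96 under vehicle, 4.77 and 4.91 at 6 h and 4.60 and 4.84 at 18 h. Its 18 h minus 6 h difference was -0.12, with a 95% interval of -0.39 to 0.14. IER3, ANKRD1, CXCL1, CXCL8 and TLR4 were the other genes with the largest held drops. At 6 h DUSP6 and CXCL8 read under 5 in both lines, and ANKRD1 did so in KO/LacZ. A further fall had less room to show at such dim levels. CXCL8, the chemokine interleukin-8, passed the test with a small further fall of 0.46. DACT1, VGLL3, ECM2, JDP2, CTH and CITED2 led the held rises. VGLL3, a cofactor of TEAD factors, read 8.90 and 8.49 at 6 h and 9.10 and 8.40 at 18 h (difference 0.06, interval -0.18 to 0.29).

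**Figure D2:**
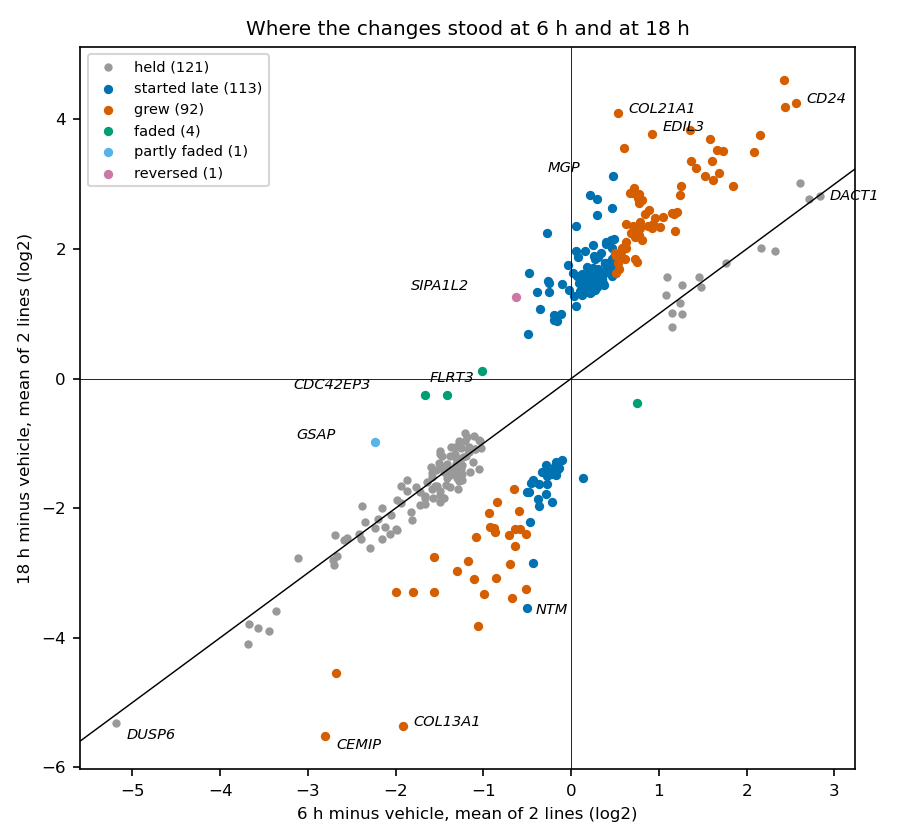
Mean change from vehicle at 6 h (x axis) and at 18 h (y axis), both in log2 units over the 2 lines, for the 211 genes moved by 1 or more between the times and the 121 held genes; the diagonal marks no change between 6 h and 18 h. The held genes lie along the diagonal, from DUSP6 at the lower left to DACT1 at the upper right, and the 6 genes that went back lie off it, toward or across the horizontal axis.

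Genes that report ERK activity differed in how far they went on falling. Of 25 tested, 7 fell further (28.0% against 14.9% of all genes) and 1 rose (4.0% against 19.0%). In both directions together 32.0% were called against 34.0% of all genes, and the median difference of the 25 was -0.12. Without the KO/eIF4B 6 h array that median was 0.04. From vehicle, the same genes had a median change of -2.39 at 6 h and -2.47 at 18 h. Among feedback phosphatases and Sprouty proteins, DUSP4 (-0.09), DUSP5 (0.09), DUSP6 (-0.12), SPRY4 (-0.07) and SPRED2 (0.14) did not pass the test, while SPRY2 fell by 0.77. Several genes that ERK induces went on falling. MYC, a driver of growth genes, read 9.28 and 9.18 under vehicle, 7.04 and 7.43 at 6 h and 5.64 and 6.24 at 18 h (18 h minus 6 h -1.29, SE 0.17, adjusted p 0.0062). FOSL1, an AP-1 subunit, fell by a further 0.88. CCND1, which encodes the G1 cyclin D1, fell by 0.71, ETV5 by 0.55 and EMP1 by 0.39. KCNN4 was the 1 gene that rose, by 0.25. EMP1 and KCNN4 lost their calls without the KO/LacZ 6 h array, and ETV5 without either KO/eIF4B vemurafenib array. EGR1 (-0.31), MAFF (-0.23) and ETV1 (-0.14) did not pass the test. Among immediate early genes, 4 of 17 rose (23.5% against 19.0% of all genes) and 2 fell. Without the KO/eIF4B 6 h array 0 rose, and without either KO/LacZ vemurafenib array 1 rose. EGR3, a zinc-finger factor, rose from 6.18 and 6.27 to 7.26 and 6.69 after 8.17 and 8.38 under vehicle (mean 0.75, SE 0.19, adjusted p 0.037). Its call was lost without the KO/LacZ 6 h, KO/LacZ 18 h or KO/eIF4B 6 h array.

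Genes of S-phase entry and DNA replication fell almost as a block. The list of G1/S genes, mostly targets of E2F factors, had 34 of 35 tested members lower at 18 h and 0 higher, with a median difference of -0.88. That is 97.1% called, against 14.9% of all genes called lower. The counts were 33 or 34 whichever array was left out. At 6 h the same genes had a median change of -0.13 from vehicle. In RNA from whole cultures, fewer cells in S phase and less RNA per cell cannot be told apart. CCNE1, which encodes cyclin E1, was the 1 member not called (-0.11, SE 0.07, adjusted p 0.25), whereas its paralogue CCNE2 fell by 1.29. MCM10, a replication initiation factor, read 9.67 and 9.59 at 6 h and 8.06 and 8.01 at 18 h (mean -1.59, SE 0.06, adjusted p 0.0018). All 6 subunits of the MCM2 to MCM7 helicase fell, by 0.83 (MCM3) to 1.11 (MCM5), after changes of -0.06 to 0.08 at 6 h. DTL, a substrate receptor that marks the licensing factor CDT1 for degradation, fell by 1.47, and the checkpoint mediator CLSPN by 1.26. CDC25A, the phosphatase that activates CDK2, had begun to drop by 6 h: it read 9.15 and 9.28 under vehicle, 8.22 and 8.32 at 6 h and 7.07 and 7.21 at 18 h.

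The promoters of 3 of these genes are shown because an E2F-type motif, which played no part in the expression test, was frequent in this list of known E2F targets. The letters TTTGGCGC or TTTCCCGC, on either strand, occurred in the 250 bases before the start of 15 of 32 list members with a RefSeq promoter (46.9%), against 2.98% of 10858 tested genes with one. Among the lower genes the share was 9.09% (2 of 22) where they started late and 5.0% where they grew. The sequences are from RefSeq on GRCh38.p14, read 5′ to 3′ on the strand of the gene, with the matches in capitals. That of CDC25A is chr3:48188418-48188667 on the minus strand, with a match that begins 44 bases before the start. That of MCM6 is chr2:135876444-135876693, minus strand, with matches at 152 and 90 bases. That of DTL is chr1:212035498-212035747, plus strand, with a match at 8 bases. A match describes letters in a window and shows no binding.
CDC25A: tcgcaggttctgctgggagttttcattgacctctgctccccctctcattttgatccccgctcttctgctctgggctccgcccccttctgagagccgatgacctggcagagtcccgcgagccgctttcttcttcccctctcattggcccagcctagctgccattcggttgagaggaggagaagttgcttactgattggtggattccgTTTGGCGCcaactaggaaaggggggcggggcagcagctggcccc
MCM6: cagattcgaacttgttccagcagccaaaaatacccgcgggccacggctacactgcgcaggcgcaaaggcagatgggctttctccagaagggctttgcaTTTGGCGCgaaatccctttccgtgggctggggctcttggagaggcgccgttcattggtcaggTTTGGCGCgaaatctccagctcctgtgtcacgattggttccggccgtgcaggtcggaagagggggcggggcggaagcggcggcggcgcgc
DTL: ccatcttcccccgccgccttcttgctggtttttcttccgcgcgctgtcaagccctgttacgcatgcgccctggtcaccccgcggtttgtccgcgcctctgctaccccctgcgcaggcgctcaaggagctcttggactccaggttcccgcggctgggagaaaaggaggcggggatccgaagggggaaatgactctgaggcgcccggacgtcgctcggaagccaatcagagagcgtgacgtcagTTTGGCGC

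Genes of G2 and mitosis moved less. Of 26 tested, 10 were lower (38.5% against 14.9% of all genes) and 0 higher, and the median was -0.24, after a median of 0.12 at 6 h. Without the KO/LacZ 6 h array 3 were lower, without the KO/LacZ 18 h array 5, and without the KO/eIF4B 6 h array 6. MKI67, the proliferation marker Ki-67, read 9.97 and 9.96 at 6 h and 9.19 and 9.32 at 18 h (mean -0.71, SE 0.07, adjusted p 0.0041). CCNA2 (-0.70), the kinesin KIF23 (-0.58) and AURKB (-0.54) fell too, the last with no call once the KO/LacZ 6 h array was left out. CCNB1 (-0.23), CDK1 (-0.08), ASPM (-0.03) and NUSAP1 (-0.03) did not pass the test. The letters TTTGAA of the cell cycle homology region, CHR, on either strand, stood in the 250-base window of 12 of 21 members (57.1%) against 8.64% of all genes. MKI67 is shown as a called member with 2 matches, at 47 and 29 bases before the start, in chr10:128126424-128126673 on the minus strand of GRCh38.p14.
MKI67: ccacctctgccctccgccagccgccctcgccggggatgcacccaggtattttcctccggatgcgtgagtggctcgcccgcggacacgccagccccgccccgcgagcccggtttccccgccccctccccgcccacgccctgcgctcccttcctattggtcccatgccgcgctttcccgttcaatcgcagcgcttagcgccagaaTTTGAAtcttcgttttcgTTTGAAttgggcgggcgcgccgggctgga

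Genes that build ribosomes and nucleotides fell with them. Of 25 ribosome biogenesis genes tested, 23 were lower and 0 higher (92.0%), with a median of -0.56, which had been -0.18 from vehicle at 6 h. The count was 10 without the KO/LacZ 6 h array and 21 or 22 without any other. MRTO4, which acts in assembly of the large subunit, went from 10.35 and 10.38 to 9.08 and 9.31 (mean -1.17, SE 0.09, adjusted p 0.0026). LYAR fell by 1.07, NOP16 by 0.84 and WDR43 by 0.83. FBL and NPM1, abundant nucleolar proteins, were the 2 members not called (-0.17 and -0.08). Of 17 nucleotide synthesis genes, 12 fell (70.6% against 14.9% of all genes) and 1 rose, and 7 fell without the KO/LacZ 6 h array. CTPS1, the CTP synthase, fell from 10.10 and 10.02 to 8.88 and 8.92. PRPS1, DHODH and UMPS fell by 0.71, 0.70 and 0.62, and IMPDH2 rose by 0.35. The genes of the ribosomal proteins themselves moved little: 1 of 21 was called, RPL3 at 0.25, the median was 0.05, and 20 of 21 differences were above 0. RPL3 lost its call whichever array was left out, and IMPDH2 without the KO/LacZ 6 h array. The E-box letters CACGTG, the core site of MYC-type factors, stood in 1 of 21 promoters of ribosome biogenesis genes (4.76%) and in 8.78% of all.

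**Figure D3:**
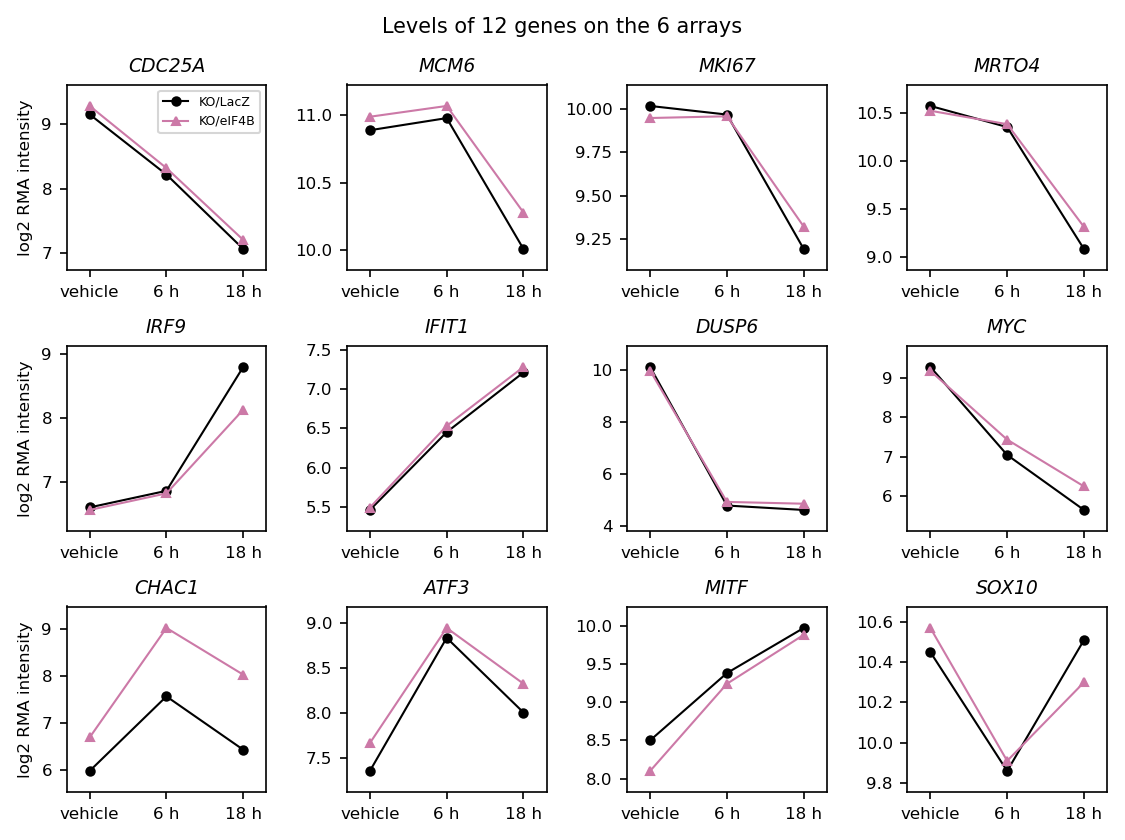
Levels of 12 genes under vehicle, at 6 h and at 18 h (x axis, not to scale in time) in log2 RMA intensity (y axis, a separate range for each gene), with 1 point per array, black for KO/LacZ and pink for KO/eIF4B. MCM6, MKI67 and MRTO4 are near the vehicle level at 6 h and lower at 18 h, DUSP6 is as low at 6 h as at 18 h, and CHAC1 and ATF3 peak at 6 h.

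Genes of cell cycle exit rose in part. Of 21 growth arrest and FOXO target genes, 8 rose (38.1% against 19.0% of all genes) and 1 fell, with a median of 0.32. There were 3 higher without the KO/LacZ 6 h array and 4 without the KO/LacZ 18 h array. FOXO3 itself rose from 8.94 and 9.12 to 9.81 and 9.71 (mean 0.73, SE 0.09, adjusted p 0.0052). The antiproliferative genes TOB1 and BTG1 rose by 0.61 and 0.63, the pocket protein RBL2 by 0.60, and SESN1 by 0.27. All 3 CIP/KIP inhibitors of cyclin-dependent kinases rose, CDKN1A by 0.48, CDKN1B by 0.30 and CDKN1C by 0.67. GADD45A fell by 0.54. These 4 calls, and those of BTG1 and SESN1, were lost without the KO/LacZ 6 h array. Of 21 p53 target genes 9 rose (42.9%) and 3 fell; without either KO/LacZ vemurafenib array 5 rose and at most 1 fell. TP53I3 rose by 0.91 and PLK2 by 0.68, whereas PMAIP1, which encodes the pro-death protein NOXA, fell from 8.88 and 9.81 to 7.78 and 8.88, a call lost without the KO/LacZ 6 h array. MDM2 (0.17) did not pass the test. In the BCL2 family 2 of 14 rose (14.3% against 19.0% of all genes) and 4 fell (28.6% against 14.9%). The falls lost their calls without the KO/LacZ 6 h, KO/eIF4B 6 h or KO/LacZ 18 h array. BMF, a pro-death BH3-only protein, rose from 6.21 and 6.21 to 7.09 and 7.29 (mean 0.98, SE 0.07, adjusted p 0.0026). BAD rose by 0.33, and beside PMAIP1 the survival gene BCL2 fell by 0.34, BID by 0.36 and BOK by 0.24. BAD lost its call without the KO/LacZ 6 h array or either KO/eIF4B vemurafenib array. MCL1, a survival protein, read 11.39 and 11.59 under vehicle, 10.09 and 10.27 at 6 h and 10.17 and 10.35 at 18 h. Neither MCL1 (0.08) nor BCL2L11, which encodes BIM (0.02), passed the test between the times.

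Interferon-response genes rose late. Of 26 tested, 18 were higher at 18 h and 1 lower, so 69.2% were called higher, against 19.0% of all genes. Their median difference was 0.61, after 0.18 from vehicle to 6 h. There were 11 higher without the KO/LacZ 6 h array and 15 to 19 without any other. IRF9, the DNA-binding subunit of the factor that type I interferon activates, read 6.60 and 6.56 under vehicle, 6.86 and 6.82 at 6 h and 8.80 and 8.13 at 18 h. Its rise of 1.63 (SE 0.17, adjusted p 0.0042) was the largest of the list. The antiviral genes IFIT2, HERC6, ISG15 and DDX60 rose by 0.98, 0.93, 0.88 and 0.86, and PARP9 by 1.11. IFIT1, which binds foreign 5′ RNA ends, was already 1.02 above vehicle at 6 h and rose from 6.45 and 6.53 to 7.21 and 7.28. ISG20, an exonuclease, went the other way, from 9.69 and 9.75 to 8.93 and 8.90. MX1 (0.06), MX2 (-0.10), OAS3 (-0.10), BST2 (-0.08), HERC5 (-0.06), IRF1 (-0.02) and OASL (0.31) did not pass the test. In antigen presentation 7 of 20 genes rose and 3 fell (50.0% called against 34.0% of all genes); 3 rose without the KO/LacZ 6 h array and 2 without the KO/LacZ 18 h array. NLRC5, which drives MHC class I genes, rose by 0.80, the immunoproteasome subunits PSMB9 and PSMB8 by 0.60 and 0.40, and HLA-C by 0.39. PSMB8 and HLA-C lost their calls without the KO/LacZ 6 h array, and PSMB9 without the KO/LacZ 18 h array. HLA-DMA, a class II loading factor, fell by 0.84 and the peptide transporter subunit TAP2 by 0.63.

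The interferon-stimulated response element was searched on either strand as GAAA, any 2 bases and GAAA again. It stood in the 250-base windows of 14 of 22 members with a RefSeq promoter (63.6%) and of 2.16% of all. The list was chosen as known interferon genes, so this share does not mark the genes that moved. Among the higher genes it was 2.74% where they started late and 2.04% where they grew. IFIT1 and DDX60 are shown as 2 called members, each with a pair of matches. The window of IFIT1 is chr10:89392373-89392622, plus strand, with matches 116 and 103 bases before the start. That of DDX60 is chr4:168318753-168319002, minus strand, with matches at 88 and 53 bases (RefSeq, GRCh38.p14).
IFIT1: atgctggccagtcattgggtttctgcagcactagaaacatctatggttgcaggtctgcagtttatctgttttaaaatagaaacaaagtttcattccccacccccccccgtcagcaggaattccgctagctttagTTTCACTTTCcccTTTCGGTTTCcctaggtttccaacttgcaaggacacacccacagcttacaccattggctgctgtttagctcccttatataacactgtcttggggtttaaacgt
DDX60: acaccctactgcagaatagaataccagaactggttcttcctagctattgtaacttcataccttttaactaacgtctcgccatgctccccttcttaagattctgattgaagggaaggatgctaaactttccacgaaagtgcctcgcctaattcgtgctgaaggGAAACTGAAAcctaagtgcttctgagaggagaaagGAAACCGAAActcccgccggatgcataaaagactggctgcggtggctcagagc

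More lysosomal genes rose than fell. Of 29 lysosome and autophagy genes 12 rose (41.4% against 19.0% of all genes) and 2 fell, with a median of 0.24. Without the KO/LacZ 6 h array 5 rose and 0 fell, where 5.86% of all genes rose. NEU1, a lysosomal sialidase, went from 7.79 and 7.64 to 8.64 and 8.34 (mean 0.78, SE 0.07, adjusted p 0.0030). The ceramidase ASAH1 rose by 0.64, PSAP, the precursor of the saposins, by 0.60, the protease CTSD by 0.56 and HEXA by 0.53. GLA and the channel MCOLN1 fell, by 0.37 and 0.24, and the autophagy gene MAP1LC3B (0.04) did not pass the test. PSAP, GLA and MCOLN1 lost their calls without the KO/LacZ 6 h array. The CLEAR letters TCACGTGA, bound by TFEB-type factors, stood in 4 of 22 members' windows (18.2%) and in 1.62% of all. CACGTG, which lies within them, stood in 31.8% and 8.78%. Among the higher genes the CLEAR letters stood in 0.0% both of those that started late and of those that grew. CTSA, a protease that protects NEU1, rose by 0.60 (SE 0.07, adjusted p 0.0049) and is shown with its match 26 bases before the start, in chr20:45891085-45891334, plus strand (RefSeq, GRCh38.p14).
CTSA: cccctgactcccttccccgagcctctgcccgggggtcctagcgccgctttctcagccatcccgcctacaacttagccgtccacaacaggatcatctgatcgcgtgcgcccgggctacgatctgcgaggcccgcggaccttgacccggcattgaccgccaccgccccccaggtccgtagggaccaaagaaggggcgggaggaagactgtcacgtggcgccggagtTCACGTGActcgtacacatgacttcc

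The amino acid and stress response did not move as 1 group. ATF4 drives genes of amino acid synthesis and, under strong stress, of cell death. At 6 h its 34 tested targets had a median change of 0.62 from vehicle, and at 18 h 0.66. Between the times 5 rose and 3 fell, 23.5% called against 34.0% of all genes. With 1 array left out 0 to 8 rose and 0 to 7 fell, and 0 of 34 were called where the lines were not paired. CHAC1, which degrades glutathione, peaked at 6 h: it read 5.99 and 6.70 under vehicle, 7.57 and 9.02 at 6 h and 6.44 and 8.03 at 18 h (18 h minus 6 h -1.06, SE 0.22, adjusted p 0.019). ATF3, a stress-induced factor counted here with the immediate early genes and not among the 34, had the same course. It read 8.84 and 8.95 at 6 h and 8.01 and 8.33 at 18 h. CEBPG and MTHFD2 fell by 0.63 and 0.52. NUPR1, a small stress-induced chromatin protein, rose from 5.26 and 6.61 to 6.51 and 8.78, and the serine synthesis enzyme PHGDH by 0.63. ALDH1L2, WARS1 and SARS1 rose by 1.14, 0.55 and 0.46. The other probe sets of ALDH1L2 moved by 0.14 and 0.40. Of these genes ATF3 alone kept its call without the KO/LacZ 6 h array. ASNS, the asparagine synthetase, stood at 10.02 and 11.26 at 6 h and 10.64 and 12.03 at 18 h and did not pass the test (adjusted p 0.13). Among ER chaperones and degradation factors 6 of 19 fell and 1 rose (36.8% called), and 1, 3 and 2 fell without the KO/LacZ 6 h, KO/LacZ 18 h and KO/eIF4B 6 h array. XBP1 fell from 8.35 and 9.04 to 7.71 and 8.30, a call lost without the KO/LacZ 6 h array, and SDF2L1 fell by 0.67.

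**Figure D4:**
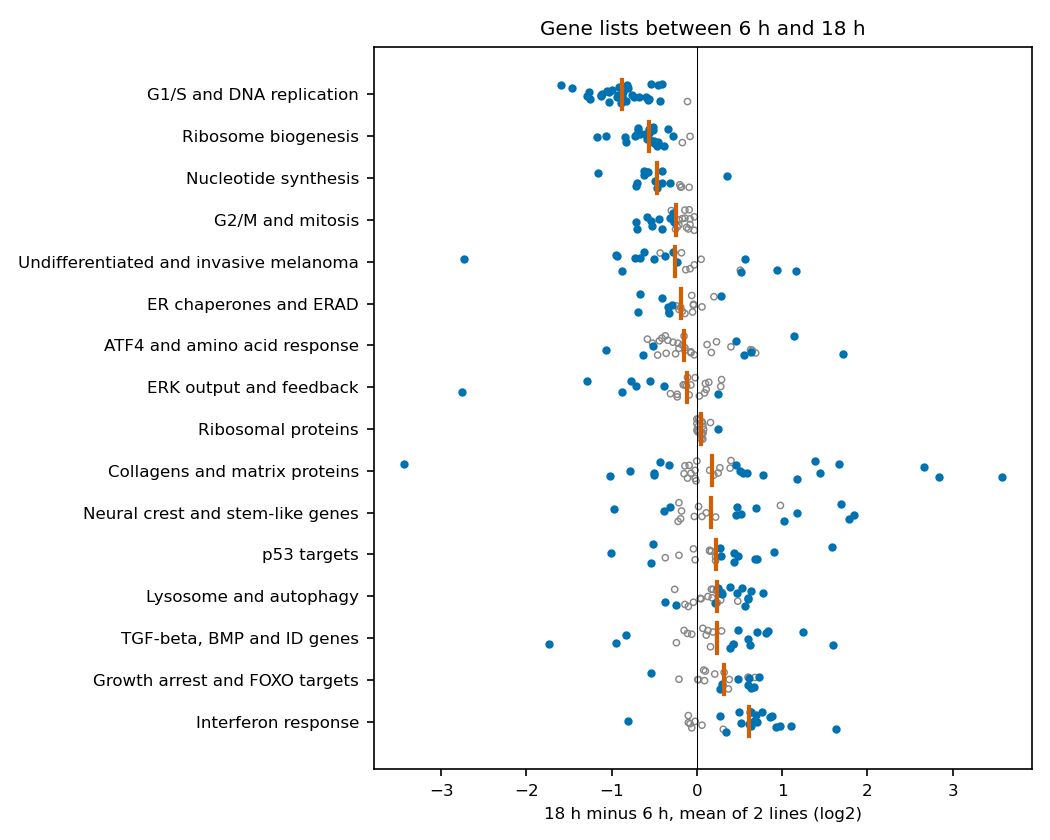
Difference between 18 h and 6 h (x axis, mean of the 2 lines, log2) for each tested member of 16 gene lists; filled blue points passed the test, open points did not, and orange bars mark the list medians. G1/S genes sit to the left of 0, with a median of -0.88, interferon-response genes mostly to the right, with a median of 0.61, and collagens and matrix proteins spread to both sides, from COL13A1 at -3.44 to COL21A1 at 3.58.

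Matrix and adhesion genes moved in both directions. Of 34 collagen and matrix genes, 12 rose and 7 fell (55.9% called against 34.0% of all genes), and the median was 0.17. Without the KO/LacZ 6 h array 9 rose and 3 fell, and without the KO/eIF4B 6 h array 4 fell. Beside COL21A1, EDIL3 and MGP, the fibrillin FBN1 rose from 7.77 and 7.21 to 9.55 and 8.77. The small proteoglycans LUM and DCN rose by 1.44 and 1.39, COL16A1 by 1.17 and COL5A1 by 0.77. Fibronectin, FN1, fell from 11.11 and 9.51 to 9.87 and 8.70, and the basement membrane chains COL4A1 and COL4A2 fell by 0.79 and 0.33. FN1 and COL4A2 lost their calls without the KO/LacZ 6 h array, and COL5A1 without the KO/eIF4B 6 h array. Among proteases and their inhibitors 7 of 16 fell and 3 rose (62.5% called). MMP1 went from 6.52 and 6.19 to 4.06 and 4.33, and the inhibitor TIMP3 from 10.71 and 10.90 to 8.96 and 9.26. MMP2 and TIMP2 rose by 0.34 and 0.42. Without the KO/LacZ 6 h array 4 fell and 0 rose, and without the KO/LacZ 18 h or KO/eIF4B 6 h array 1 rose. In adhesion and axon guidance 14 of 42 rose and 4 fell (42.9% called), and 4 rose without the KO/LacZ 6 h array. ALCAM, the receptor ROBO1 and the ligand EFNB2 rose by 1.39, 1.22 and 1.17. Among integrins ITGB3, ITGB5 and ITGA6 fell, by 2.34, 0.96 and 0.51, and ITGA4 and ITGB8 rose, by 1.16 and 1.02. The other probe sets of ITGB3 moved by only -0.08 to -0.76. ROBO1, EFNB2 and ITGA4 lost their calls without the KO/LacZ 6 h array.

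Of 20 contractile genes 7 rose and 2 fell (45.0% called against 34.0% of all genes), and 4 rose and 0 fell without the KO/LacZ 6 h array. MYLK, the myosin light chain kinase, went from 7.82 and 8.55 to 10.17 and 10.19, and ACTA2, smooth muscle actin, from 6.48 and 6.76 to 8.04 and 8.28. The other probe sets of ACTA2 moved by 0.24 and 0.01. ACTA2 is also 1 of the fibroblast markers. Of 10 such markers 6 were tested and 4 were higher at 18 h (DCN, LUM, ACTA2 and PDGFRB). The summed intensity of all 10 was 614 to 744 under vehicle, 835 to 910 at 6 h and 1460 to 1790 at 18 h. COL1A2, COL3A1, FAP and POSTN were under 5 on every array, and COL1A1 was level between 7.87 and 8.0. The part of such cells in the result was not tested.

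Genes of melanoma cell states moved in both directions. In the undifferentiated, invasive list 11 of 22 fell and 4 rose, with a median of -0.26 (68.2% called against 34.0% of all genes); 6 fell and 2 rose without the KO/LacZ 6 h array. Of the TEAD-dependent genes CCN1, CCN2 and AJUBA fell, by 0.95, 0.94 and 0.37, and TEAD1 and TEAD4 themselves by 0.73 and 0.67. ANKRD1 (-0.43) and AMOTL2 (-0.08) did not pass the test. AXL and EGFR, receptor kinases of that state, did not pass the test (-0.18 and -0.13). WNT5A and the iron reductase CYBRD1 rose by 0.94 and 1.16. Of 22 neural crest and stem-like genes 9 rose and 3 fell (54.5% called), with a median of 0.16, and 3 rose without the KO/LacZ 6 h array. SOX4 rose from 9.06 and 9.14 to 11.18 and 10.70. NR2F1, a nuclear receptor, rose from 6.24 and 6.19 to 8.64 and 7.36. SOX2, near 6.39 and 6.34 under vehicle, stood at 9.72 and 9.74 at 6 h and 10.58 and 10.26 at 18 h. FOXD3, a neural crest transcription factor, had risen by 3.99 at 6 h and read 7.11 and 8.01 there and 8.74 and 8.33 at 18 h, which did not pass the test (adjusted p 0.056). ALDH1A3 fell by 0.97. SOX10, the lineage factor, dipped from 10.45 and 10.57 to 9.86 and 9.91 at 6 h and stood at 10.51 and 10.30 at 18 h (18 h minus 6 h 0.52, SE 0.10, adjusted p 0.014). MITF, the regulator of pigment genes, read 8.50 and 8.10, then 9.38 and 9.24, then 9.97 and 9.88 (mean 0.62, SE 0.09, adjusted p 0.0087). SOX10, MITF, SOX2, AJUBA and WNT5A lost their calls without the KO/LacZ 6 h array. Of 15 pigment genes 3 rose and 1 fell (26.7% called against 34.0% of all genes), with a median of -0.14. TYR (-0.15) and PMEL (-0.13) did not pass the test. Differences between these lists were not tested.

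Some receptors and secreted regulators also passed the test. Among receptor tyrosine kinases and ligands 7 of 30 rose and 1 fell, 26.7% against 34.0% of all genes, and 3 rose without the KO/LacZ 6 h array. KITLG, the KIT ligand, went from 7.61 and 7.56 to 9.27 and 8.62, and FGFR2 from 5.88 and 5.56 to 7.49 and 6.54. FGFR3, ERBB2, PDGFD, PDGFRB and ERBB3 rose by 0.90, 0.64, 0.61, 0.52 and 0.47, and NRG1 fell by 0.47. Of these, KITLG, ERBB2 and PDGFRB kept their calls without the KO/LacZ 6 h array. Of 24 TGF-beta, BMP and ID genes 10 rose and 3 fell (54.2% called). ID2, an inhibitor of basic helix-loop-helix factors, rose from 8.35 and 8.19 to 9.99 and 9.76 (mean 1.60, SE 0.11, adjusted p 0.0025), and ID1 and ID3 rose by 0.81 and 0.84. SMAD9 rose by 1.25. The activin subunit INHBA and its antagonist FST fell, by 0.95 and 1.74. Among WNT regulators 5 of 23 rose and 3 fell, 34.8% called and so near the 34.0% of all genes, and without the KO/LacZ 6 h array 1 rose and 2 fell. LGR4 and DKK3 rose by 1.33 and 1.14, and SFRP1 and ROR1 fell by 1.49 and 0.93. Of 6 IGF-binding proteins IGFBP5, IGFBP6 and IGFBP2 rose, by 2.52, 1.0 and 0.27, and IGFBP4 and IGFBP3 fell, by 1.68 and 0.94. DKK3 and IGFBP2 lost their calls without the KO/LacZ 6 h array.

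Metabolic lists were mixed, and their counts depended on single arrays. In glycolysis and hypoxia 7 of 27 rose (25.9% against 19.0% of all genes) and 4 fell (14.8% against 14.9%), and 3 rose without the KO/LacZ 6 h, KO/LacZ 18 h or KO/eIF4B 6 h array. PFKFB4 and PDK4 rose by 0.76 and 0.67, and ADM and HK2 fell by 1.12 and 0.57. Glucose transporters SLC2A1 and SLC2A3, which had dropped by 1.26 and 2.35 at 6 h, did not pass the test between the times (-0.13 and 0.13). Of 24 oxidative phosphorylation genes 6 rose and 3 fell (37.5% called against 34.0% of all genes), and 0 rose without the KO/LacZ 6 h, KO/LacZ 18 h or KO/eIF4B 6 h array. PPARGC1B, a coactivator of mitochondrial genes, fell from 6.55 and 6.23 to 5.30 and 5.41, and TFAM and CYCS fell by 0.49 and 0.47. COX6C rose by 0.34. In cholesterol and fatty acid synthesis 2 of 19 rose (SCD by 0.59, SREBF1 by 0.57) and 3 fell (HMGCS1 by 0.65, FASN by 0.41, IDI1 by 0.26), 26.3% against 34.0%. Without the KO/eIF4B 18 h array 4 rose and 4 fell, without the KO/LacZ 18 h array 1 rose and 0 fell, and without the KO/LacZ 6 h array 1 rose and 1 fell. Among heat shock proteins HSPB1 rose by 0.66, and HSPE1, HSPH1, HSP90AA1 and HSPD1 fell by 0.40, 0.37, 0.30 and 0.22. Of 19 chromatin genes 6 rose and 4 fell (52.6% called), and 1 rose and 0 fell without the KO/LacZ 6 h array. The histone demethylase KDM5B, linked to slow cycling in melanoma, rose by 0.61, and 3 Polycomb genes, EZH2, EED and SUZ12, fell by 0.51, 0.37 and 0.26. Among clock genes BHLHE40 had dropped by 1.49 at 6 h and rose from 4.30 and 5.22 to 5.49 and 5.92, and BMAL1 rose by 0.55. Of the genes named here PFKFB4, ADM, HK2, PPARGC1B, TFAM, SCD, HMGCS1, HSPB1 and KDM5B kept their calls without the KO/LacZ 6 h array, and HMGCS1 lost its call without the KO/LacZ 18 h array.

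The called genes, which had to share a direction to pass the test, did not always move by the same size in both lines. At 18 h against 6 h, 495 genes moved by 1 or more in the knockout line, 397 up and 98 down, and 258 in the rescued line, 170 up and 88 down. The knockout line had more such genes under median centring (481 against 257), cyclic loess (492 against 250), an offset of 16 (391 against 176) and the mean over probe sets (307 against 154). From vehicle to 6 h the numbers were 295 and 310, and from vehicle to 18 h 1181 and 991. With 1 array per line and time this difference has no test. In 36 genes the paired differences of the lines were 1 or more apart, with the knockout line higher in 34. OGFRL1 went from 7.29 to 10.07 in the knockout line and from 7.98 to 9.02 in the rescued line. The call of OGFRL1 was lost without the KO/LacZ 6 h array. ITGA4 was 1.81 and 0.51 higher at 18 h in the knockout and the rescued line, and FOXD3 1.63 and 0.32 higher. SCG5, a secretory chaperone, was among the 2 genes with the opposite order: it went from 7.15 to 7.69 in the knockout line and from 7.38 to 9.47 in the rescued line. FLG was the other, named after its value was seen. The median size of the difference between the lines was 0.131.

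**Figure D5:**
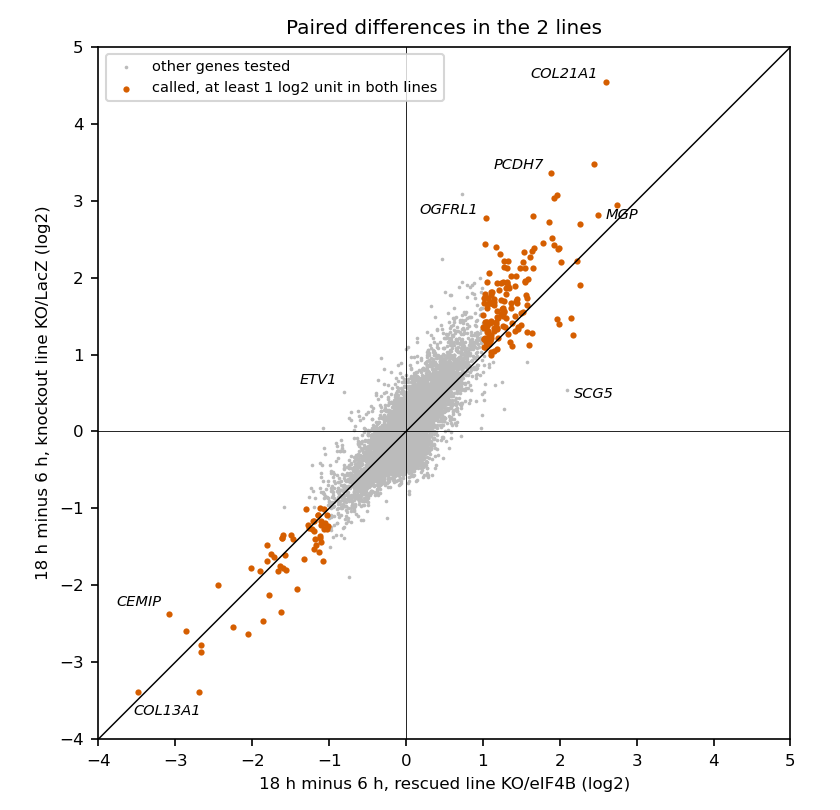
Paired differences of the 13506 tested genes, 18 h minus 6 h in log2 units, in the rescued line (x axis) and the knockout line (y axis); orange points are the 211 genes called and moved by at least 1 in both lines, and the diagonal marks equal differences. Most rising orange points lie above the diagonal, as COL21A1 does at 2.60 and 4.55, and SCG5, at 2.09 and 0.54, lies below it.

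A further 3149 probe sets with a mean of at least 5 carry no gene name here. Of these, 12 were higher and 2 lower at 18 h by 1 or more in both lines.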

How the data were processed

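RNA of 6 cultures was measured on Affymetrix arrays. The authors deposited 1 linear intensity for each of 54675 probe sets, made by RMA with the affy package, per the submitters' processing notes (versions: not given in the sources used here). Since RMA gives all arrays the same distribution, these values cannot show a change in total mRNA per cell. log2 was taken first. Of the probe sets, 62 are controls, 41091 carry 1 gene symbol, 1801 several and 11721 none in GEO's platform annotation; 41037 matched RefSeq's table (GRCh38.p14) by gene identifier. The brightest probe set stood for each of 19775 genes, and 13506 with a mean of at least 5 were tested.

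limma 3.58.1 in R 4.3.3 fitted line and treatment on all 6 arrays (2 residual and 3.19 prior degrees of freedom), with Benjamini-Hochberg adjustment. The estimate is the mean of the 2 paired differences, so the line is the block, and vehicle arrays enter only the spread; without them 3498 genes were called. Members and gene lists were chosen with earlier results of these data known. Lists are described by counts and medians, with no set test. Genes were named by rank within the whole comparison, each time class, the held changes and the difference between lines, and by size within each list; other list members, and the promoters shown, were picked with values in view. The script was checked on simulated data. Alternatives covered the filter, probe sets, scaling, an offset of 16, the variance model, a minimum effect, the class limits and each array left out.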

Additional observations from a re-analysis of the deposited data

Results flagged for a closer look

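ETV1, an ETS factor whose level follows ERK activity, was the 1 gene of 13506 that moved by at least 0.5 log2 units in opposite directions in the 2 lines. It read 8.77 under vehicle, 5.72 at 6 h and 6.24 at 18 h in the knockout line, and 8.71, 6.24 and 5.44 in the rescued line. The paired differences were 0.52 and -0.80, so the lines differed by 1.32, and this difference was not tested because there is 1 array per line and time.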

How the results depend on the processing

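The count of called genes was 3498 from the 4 vemurafenib arrays alone, 3714 without the filter on dim genes, 4778 at a mean of at least 6, 4625 after cyclic loess, 4933 with an offset of 16 and 5328 with a trended, robust variance. Without the replicate block, that is, with the lines not paired, it was 2727 (1506 higher, 1221 lower), and for a change beyond 0.5 log2 units (treat) 240 (151 and 89). From the second brightest probe set, which fewer genes have, it was 2112 (1053 and 1059). Centring on array medians gave 3116 lower genes. Leaving out 1 array at a time gave 1435 to 4252 genes, 791 to 2467 higher and 644 to 1785 lower; with a vemurafenib array left out, the vehicle arrays enter the estimate and the lone array is assumed to vary like the others. Leaving out a vehicle array left the estimate as it was.

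Class counts were not possible where a pair was incomplete. With 0.3 log2 units counted as changed at 6 h, 52 higher and 15 lower genes started late and 9 higher genes went back. With 1 unit, 45 lower genes started late, 24 higher and 12 lower genes grew and 0 lower genes went back. With 0.5 units required per line, 581 and 372 started late, 168 and 94 grew, and 35 and 7 went back. The mean over probe sets gave 51 late and 35 growing higher genes and 2 that went back. The second brightest probe set gave 30 and 9 late, 24 and 15 growing, 2 and 0 going back. Centring gave 47 late lower genes and 3 and 2 going back, loess 2 lower genes going back, and the offset of 16 gave 40 growing higher genes and 3 and 0 going back.

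From the second brightest probe set the sign turned for DBP (-0.05), GPNMB (-0.21), H2BC5 (0.33), HDAC5 (-0.21), MYL9 (-0.03), TP53INP1 (-0.09) and the medians of antigen presentation (-0.10) and clock genes (-0.05). It also had the opposite sign, at a mean under 5 and so untested, for CSGALNACT1 (-0.40), HERC6 (-0.15), BHLHE41 (-0.28), FOXD3 (-0.07), JDP2 (0.02), LGR4 (-0.03) and NFKBIA (-0.05). At a mean of at least 6 the medians of immediate early genes (0.08) and epithelial markers (0.50) turned, the latter also over the mean of probe sets (0.05). With 1 array left out, medians ran from -0.27 to 0.04 for ERK output, -0.24 to 0.02 for ATF4 targets and -0.22 to 0.15 for epithelial markers. The cause of these shifts was not tested. The number of arrays and dim signal limit the precision.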
